A study of Homo sapiens with 4 samples.

Results

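The transcripts of 40 genes that carry out autophagy were followed in MIA PaCa-2 and PANC-1 cells, 2 established human pancreatic ductal adenocarcinoma lines, after treatment with cannabichromene (CBC). The genes were listed by symbol, with earlier results of these data known, all 40 were found among the 58233 genes of the deposited count table, and they were grouped by 7 stages: initiation, nucleation, phagophore growth, conjugation, the ATG8 family, receptors and fusion. CBC is a cannabinoid of the cannabis plant. MIA PaCa-2 cells received 35 µM CBC and PANC-1 cells 30 µM CBC for 24 h, and the control culture of each line is labeled as PBS treated. The methods speak of a vehicle control and of CBC dissolved in acetonitrile, and whether the control cultures received that solvent is not stated. If they received PBS alone, an effect of the solvent and one of CBC cannot be told apart. Messenger RNA was sequenced in 4 libraries, with 1 library per condition and no replicate within a line, so that any difference between the 2 libraries of a line has no replicate check. In RNA from whole cultures, less RNA per cell and fewer cells that carry it cannot be told apart.

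Autophagy encloses cytoplasm in a growing membrane, the phagophore, and delivers it to lysosomes. The ULK complex starts the process, the class III PI3-kinase complex marks the membrane with a phosphoinositide lipid, and WIPI, ATG2 and ATG9 proteins let it grow. A ubiquitin-like conjugation machinery then attaches ATG8 proteins (the LC3 and GABARAP families) to the membrane, where receptors such as p62 dock their cargo. In pancreatic ductal adenocarcinoma, autophagy is known to be active already under basal growth and to supply the cells with nutrients.

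The libraries held 21742775 to 27903667 counts. The keratins KRT8, KRT18 and KRT19 and the intermediate filament gene VIM were abundant in all 4, with at least 3976 counts each. Another keratin, KRT7, had only 2 (PBS) and 52 (CBC) counts in MIA PaCa-2 and 49 and 58 in PANC-1. The epithelial adhesion genes EPCAM and CDH1 had 0 or 1 count in MIA PaCa-2 and 32 to 264 counts in PANC-1. CDH2, like VIM a marker of the mesenchymal state, had 0 counts in MIA PaCa-2 and 725 and 507 in PANC-1. The leukocyte markers PTPRC and CD3E, the fibroblast marker DCN, the acinar marker CPA1 and the islet markers INS and GCG were at 0 in every library. COL1A1, also used as a fibroblast marker, had 11 and 13 counts in MIA PaCa-2 and 3037 (PBS) and 1268 (CBC) counts in PANC-1, and the endothelial marker CDH5 had at most 49 counts while PECAM1 was at 0. The part of these genes in the results was not tested.

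Across the 40 genes, higher levels after CBC prevailed over lower ones in both lines, and the members that rose across both lines belonged to phagophore growth, the ATG8 family and the receptors. Levels are given in CPM, the counts of a gene scaled to a common library size. The comparison within a line took in genes that reached 1 CPM in either library, and called those whose log2 fold change of CBC over PBS lay past 1 in either direction. In MIA PaCa-2, 9 of 38 tested members were called higher and 0 lower, where 11.5% of all genes tested were called higher and 8.97% lower. In PANC-1, 6 of 40 were called higher and 0 lower, against 7.71% and 7.03% of all genes tested. The same 6 members, WIPI1, MAP1LC3A, MAP1LC3B, GABARAPL1, SQSTM1 and OPTN, were called higher in both lines, of 38 members tested in both. Among all genes tested in both lines, 3.33% were called higher in both and 2.98% lower in both. The median log2 fold change of the members was 0.43 in MIA PaCa-2 (range −0.66 to 3.53) and 0.38 in PANC-1 (range −0.50 to 2.0), beside −0.01 and 0.02 over all genes tested. In MIA PaCa-2, the 95% counting interval lay above 0 for 27 members, below 0 for 5 and included 0 for 6. The corresponding numbers in PANC-1 were 28, 4 and 8. These intervals cover counting error only and do not hold the spread between cultures. The same numbers over all genes were not computed, so that these counts of intervals only describe the members.

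CBC was also compared with PBS across both lines by edgeR's quasi-likelihood test with the line as a block. The only replication was over the 2 lines, with 1 residual degree of freedom per gene. The test draws each gene's spread toward one shared over all genes, so that its p-values rest in part on other genes. They hold no spread between cultures of a line. By this test, 7 of the 40 members rose and 0 fell at an adjusted p under 0.05, over all 16381 genes tested, of which 2.26% rose and 2.45% fell. The 7 were WIPI1, ATG2A, MAP1LC3A, MAP1LC3B, GABARAPL1, SQSTM1 and OPTN. At an unadjusted p under 0.05, 14 members were higher and 0 lower, where 10.6% of all genes were higher and 10.4% lower. DESeq2 called 11 members higher and 0 lower, where it called 4.38% of the 13205 genes with an adjusted p higher and 5.43% lower. Without the block for the line, 0 members and 0 of all genes were called, with 5 members higher at an unadjusted p under 0.05.

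**Figure D1:**
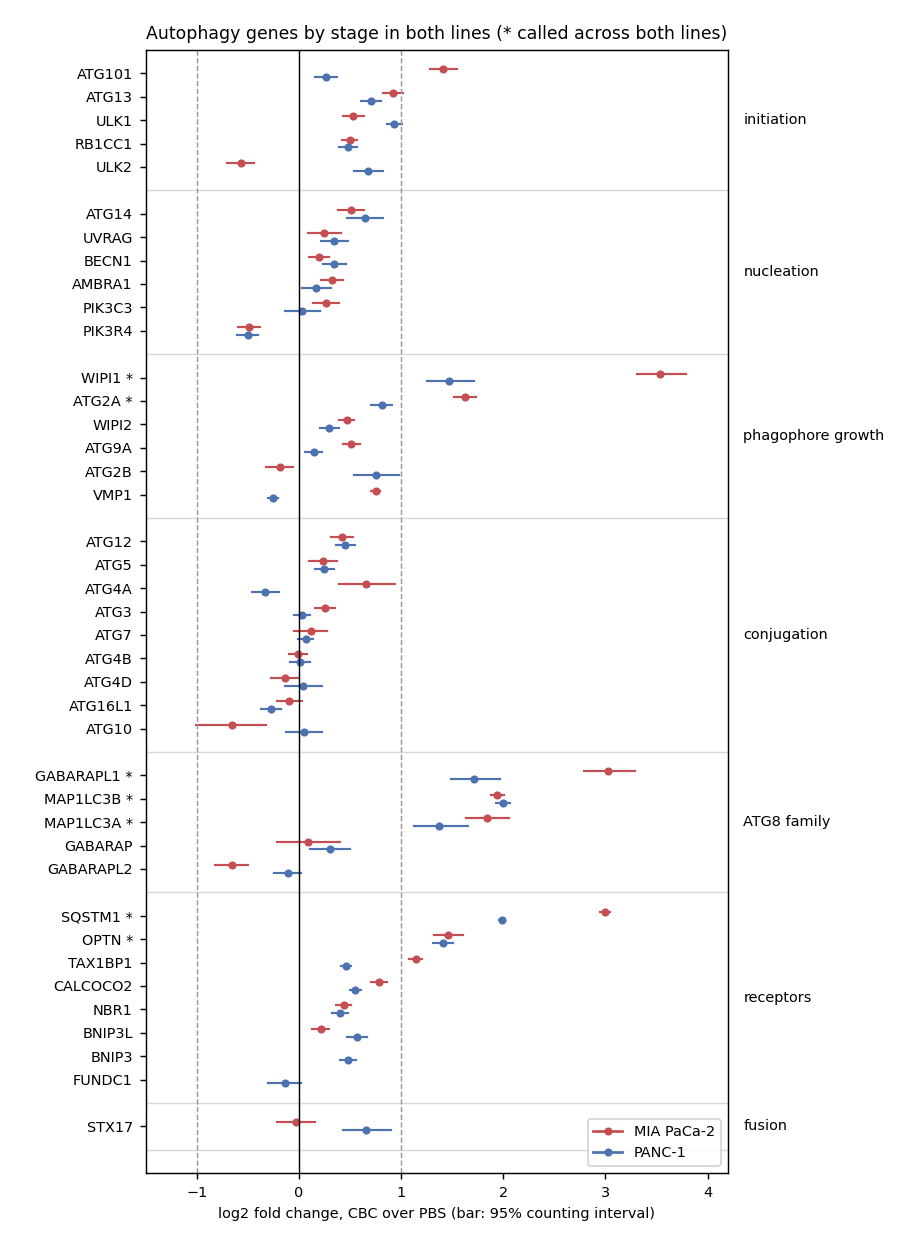
Log2 fold change of CBC over PBS (x axis, dashed lines at −1 and 1) for each of the 40 genes, ordered by stage, in MIA PaCa-2 (red) and PANC-1 (blue). Points are 1 library against 1 library, bars are 95% counting intervals and asterisks mark the 7 genes that rose across both lines, all of which lie in phagophore growth, the ATG8 family and the receptors. BNIP3 and FUNDC1 have a point for PANC-1 only.

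**Figure D2:**
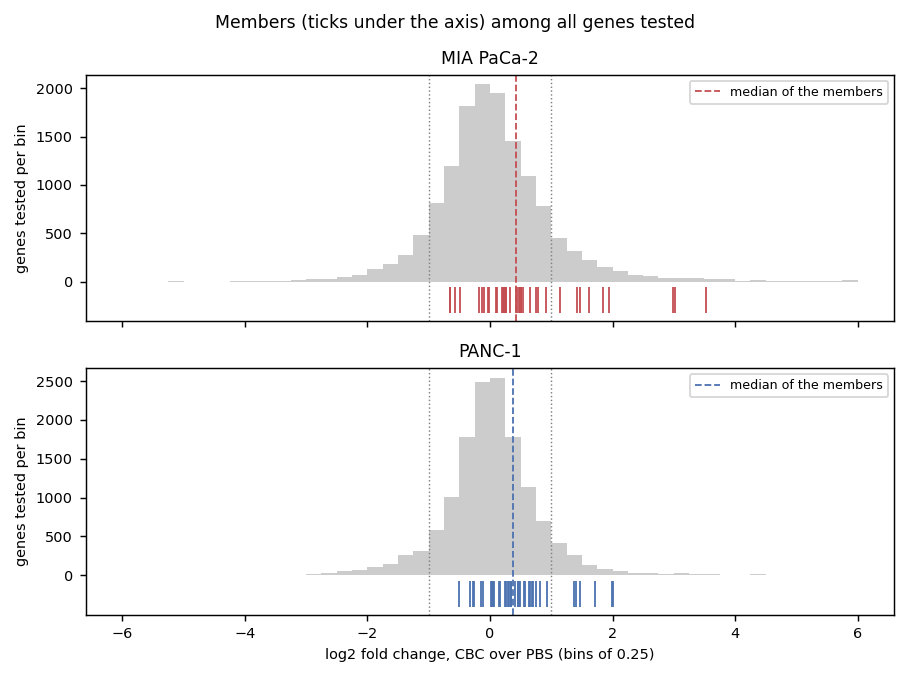
Distribution of the log2 fold change of CBC over PBS over all genes tested (gray, genes per bin of 0.25) with the members as colored ticks under the axis, in MIA PaCa-2 (upper) and PANC-1 (lower). Dotted lines mark −1 and 1, and the members' medians of 0.43 and 0.38 (dashed) stand to the right of the center of all genes.

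The promoters of the members that rose are shown because these genes changed together. The 250 bases before the transcription start of these members were taken from RefSeq (GRCh38.p14), in which 34 of the 40 members had a window. MAP1LC3A is named only. Sequences are given 5′ to 3′ in the direction of the gene, and capitals mark a match to any of 5 motifs searched on both strands: the ATF4 composite site TGATGNAA, the antioxidant response element TGACNNNGC, the E-box CACGTG, the CLEAR element TCACGTGA, which holds the E-box, and the cAMP response element TGACGTCA.
WIPI1 (chr17:68457497-68457746, minus strand): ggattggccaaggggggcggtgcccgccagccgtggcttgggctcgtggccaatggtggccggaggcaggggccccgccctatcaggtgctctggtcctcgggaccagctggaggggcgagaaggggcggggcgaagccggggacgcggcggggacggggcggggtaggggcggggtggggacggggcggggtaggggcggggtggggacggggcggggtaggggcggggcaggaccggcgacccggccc
ATG2A (chr11:64917210-64917459, minus strand): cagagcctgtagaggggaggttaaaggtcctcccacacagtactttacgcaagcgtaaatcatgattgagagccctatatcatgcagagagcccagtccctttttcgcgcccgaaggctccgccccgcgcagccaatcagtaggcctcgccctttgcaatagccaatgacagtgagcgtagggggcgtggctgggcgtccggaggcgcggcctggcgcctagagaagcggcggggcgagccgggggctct
MAP1LC3B (chr16:87392086-87392335, plus strand): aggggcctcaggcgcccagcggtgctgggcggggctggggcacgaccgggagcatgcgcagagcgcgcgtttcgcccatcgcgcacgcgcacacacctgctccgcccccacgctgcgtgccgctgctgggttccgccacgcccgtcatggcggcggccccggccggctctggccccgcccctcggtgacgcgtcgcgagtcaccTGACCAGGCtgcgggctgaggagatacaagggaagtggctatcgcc
GABARAPL1 (chr12:10212627-10212876, plus strand): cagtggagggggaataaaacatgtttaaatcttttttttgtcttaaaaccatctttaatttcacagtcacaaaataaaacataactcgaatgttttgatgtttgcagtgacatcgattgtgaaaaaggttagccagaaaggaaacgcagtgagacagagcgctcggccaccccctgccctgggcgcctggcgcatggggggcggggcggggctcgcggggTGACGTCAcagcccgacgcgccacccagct
SQSTM1 (chr5:179820655-179820904, plus strand): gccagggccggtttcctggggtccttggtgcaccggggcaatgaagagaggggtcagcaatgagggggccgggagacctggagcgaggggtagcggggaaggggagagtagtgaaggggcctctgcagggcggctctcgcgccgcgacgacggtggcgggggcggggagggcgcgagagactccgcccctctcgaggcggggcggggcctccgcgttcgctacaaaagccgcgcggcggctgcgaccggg
OPTN (chr10:13099913-13100162, plus strand): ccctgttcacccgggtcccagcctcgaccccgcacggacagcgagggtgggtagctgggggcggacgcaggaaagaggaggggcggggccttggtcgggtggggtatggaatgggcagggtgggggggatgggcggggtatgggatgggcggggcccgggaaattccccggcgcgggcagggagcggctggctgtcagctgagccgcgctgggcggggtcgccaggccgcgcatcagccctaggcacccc
The antioxidant response element matched MAP1LC3B at 46 to 38 bases before the start, and the cAMP response element matched GABARAPL1 at 30 to 23 bases before it. The other 4 windows held no match to these 5 motifs. Among the 34 member windows, the antioxidant response element was found in 3 (8.82%; ATG101, CALCOCO2 and MAP1LC3B), where 10.9% of all 35116 windows held it. The E-box was found in 3 (8.82%; ATG14, ATG3 and BNIP3), beside 6.34% of all windows. The cAMP response element, which was added after the windows were seen, was found in 1 (2.94%), beside 1.65%. The ATF4 composite site and the CLEAR element were found in 0 member windows, beside 3.14% and 0.854% of all. The hypoxia response core ACGTG, contained in the E-box, was found in 12 (35.3%), beside 18.5%, and in none of the 6 windows shown. The GC box GGGCGG, also added after the windows were seen, was found in 25 member windows (73.5%), beside 42.6% of all, and each window shown held 1 to 9 copies of it. The 6 windows held 51.6% to 79.6% G and C, while the median was 62.6% over the members and 58.0% over all windows. Each member entered with 1 window, the one nearest its canonical start. The windows of the whole set were not reduced to 1 per gene, nor to protein-coding or expressed genes, so that the shares compare unlike sets. Such matches describe letters in a window and were not tested as binding sites. Sequence outside the windows was not searched, so that a window without a match does not show a gene without the motif.

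In the initiation stage, no member rose across both lines by edgeR's quasi-likelihood test, with 4 of 5 higher at an unadjusted p under 0.05 and 2 called by DESeq2 (ULK1 and ATG13). Of all genes tested, 2.26% rose by edgeR, 10.6% were higher at that unadjusted p and 4.38% were called higher by DESeq2. The median log2 fold change of the stage was 0.53 in MIA PaCa-2 and 0.68 in PANC-1. ATG101, which stabilizes ATG13 in the ULK complex, was at 27.1 CPM (PBS) and 72.2 CPM (CBC) in MIA PaCa-2 and at 54.8 and 65.9 CPM in PANC-1. Its CBC level in MIA PaCa-2 thus stood above both PANC-1 libraries, although its control level there was the lowest of the 4. The log2 fold change of ATG101 was 1.41 (counting interval 1.28 to 1.55) in MIA PaCa-2 and 0.27 (0.16 to 0.37) in PANC-1, and across both lines it was 0.85 ± 0.31 (SE) with an adjusted p of 0.173 by edgeR. Of its canonical transcript, 42.8% overlaps a lncRNA on the opposite strand, which had at most 2 counts in any library. ULK2, a kinase paralog of ULK1, was at 50.7 (PBS) and 34.2 CPM (CBC) in MIA PaCa-2 and at 27.2 and 43.6 CPM in PANC-1. It was lower with CBC in the former line and higher in the latter, with log2 fold changes of −0.57 (−0.70 to −0.44) and 0.68 (0.54 to 0.82). The kinase ULK1 itself was higher with CBC in both, at 0.53 in MIA PaCa-2 and 0.94 in PANC-1. The scaffold genes ATG13 (0.92 and 0.70) and RB1CC1 (0.50 and 0.48) were likewise above 0 in both on this log2 scale.

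In the nucleation stage, 0 of 6 members were called in either line or across both, and the median log2 fold change was 0.26 in both lines. With so few members, 0 calls are near the shares over all genes, which were 11.5% higher and 8.97% lower in MIA PaCa-2. In PANC-1 these shares were 7.71% and 7.03%, and across both lines 2.26% and 2.45% by edgeR. ATG14, the subunit that directs the class III PI3-kinase complex to autophagy, was at 37.9 (PBS) and 54.0 CPM (CBC) in MIA PaCa-2 and at 17.4 and 27.2 CPM in PANC-1, with log2 fold changes of 0.51 and 0.64. FBXO34 overlaps 22.2% of the ATG14 transcript on the opposite strand. PIK3R4, the regulatory subunit of that complex, was at 71.0 (PBS) and 50.6 CPM (CBC) in MIA PaCa-2 and at 77.2 and 54.5 CPM in PANC-1. Its level was lower with CBC by nearly the same amount in both lines, at a log2 fold change of −0.49 and −0.50 and an adjusted p of 0.243 across both by edgeR. The remaining nucleation genes, BECN1, PIK3C3, UVRAG and AMBRA1, lay between 0.03 and 0.35.

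In phagophore growth, 2 of 6 members rose across both lines by edgeR, where 2.26% of all genes tested rose and 2.45% fell. The 2 were WIPI1 and ATG2A. With a filter at 5 CPM in 2 libraries both missed the threshold, at adjusted p of 0.0554 and 0.0596 by edgeR, and with DESeq2 size factors ATG2A did, at 0.0565 by edgeR. WIPI1, which binds the phosphoinositide of the young phagophore, was at 6.93 CPM (154 counts) with PBS and 80.9 CPM (2002 counts) with CBC in MIA PaCa-2. In PANC-1 it was at 8.97 CPM (204 counts) and 25.0 CPM (684 counts), so that both CBC libraries stood above both controls. These levels give an 11.6-fold difference in MIA PaCa-2 (log2 fold change 3.53, counting interval 3.31 to 3.79), the highest of all members, and a 2.77-fold difference in PANC-1 (1.47, 1.25 to 1.71). Across both lines the log2 fold change of WIPI1 was 2.52 ± 0.49 (SE), with an adjusted p of 0.0328 by edgeR. Of its canonical transcript, 28.3% overlaps ARSG on the opposite strand, which had 48 to 91 counts.

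ATG2A, a lipid transfer protein that feeds the growing membrane, was at 40.9 (PBS) and 126 CPM (CBC) in MIA PaCa-2 and at 48.1 and 84.4 CPM in PANC-1. Its controls were close to each other and both CBC libraries lay above them, by 3.08-fold (log2 1.62, 1.52 to 1.73) and 1.75-fold (0.81, 0.71 to 0.92). The log2 fold change across both lines was 1.22 ± 0.26 (SE), with an adjusted p of 0.0437 by edgeR. Its paralog ATG2B, singled out after its values were seen, was at 43.3 (PBS) and 38.0 CPM (CBC) in MIA PaCa-2 and at 10.9 and 18.5 CPM in PANC-1, with log2 fold changes of −0.19 (−0.32 to −0.06) and 0.75 (0.54 to 0.98). VMP1, a membrane protein needed for phagophore formation at the endoplasmic reticulum, was at 259 (PBS) and 436 CPM (CBC) in MIA PaCa-2 and at 296 and 247 CPM in PANC-1. The CBC library was the highest of the 4 in MIA PaCa-2 and the lowest in PANC-1, at log2 fold changes of 0.75 (0.71 to 0.80) and −0.26 (−0.31 to −0.21). WIPI2 (0.47 and 0.30) and ATG9A (0.51 and 0.14) were above 0 in both lines. Of the ATG9A transcript, 48.6% overlaps another protein-coding gene on the same strand, which has no row in the count table.

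The conjugation machinery, which activates ATG8 proteins and attaches them to lipid, held no called member. Of its 9 members, 0 were called in either line, 0 rose or fell across both lines by edgeR, and 0 were at an unadjusted p under 0.05 or called by DESeq2. Over all genes tested, 11.5% were called higher and 8.97% lower in MIA PaCa-2, and 7.71% and 7.03% in PANC-1. Across both lines, 2.26% rose and 2.45% fell by edgeR. With only 9 members, the absence of a call is near these shares and does not set the stage apart. The median log2 fold change of the stage was 0.11 in MIA PaCa-2 and 0.04 in PANC-1. ATG12, the ubiquitin-like protein joined to ATG5, was at 52.5 (PBS) and 70.3 CPM (CBC) in MIA PaCa-2 and at 69.3 and 95.04 CPM in PANC-1, with log2 fold changes of 0.42 and 0.45. ATG10, the enzyme that carries ATG12 to ATG5, was at 7.87 (PBS) and 4.97 CPM (CBC) in MIA PaCa-2 and at 21.2 and 21.9 CPM in PANC-1. This was lower with CBC in MIA PaCa-2 (−0.65, −1.01 to −0.32) and close to its control in PANC-1 (0.05). The protease ATG4A, which primes and releases ATG8 proteins and was singled out after its values were seen, was at 8.004 (PBS) and 12.7 CPM (CBC) in MIA PaCa-2 and at 42.8 and 34.1 CPM in PANC-1. Its log2 fold change was 0.66 (0.40 to 0.94) in the former and −0.33 (−0.46 to −0.20) in the latter.

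The PBS libraries of the 2 lines were also set side by side, a comparison chosen after the values were seen, with 1 library per line. The E1-like enzyme ATG7 was at 24.9 CPM in the MIA PaCa-2 control and 121 CPM in the PANC-1 control, a log2 ratio of PANC-1 over MIA PaCa-2 of 2.29 (counting interval 2.15 to 2.42). ATG4A (2.42, 2.19 to 2.66), ATG10 (1.43, 1.18 to 1.69) and ATG5 (1.074, 0.95 to 1.196) were also higher in PANC-1. The proteases ATG4D (−0.99, −1.15 to −0.82) and ATG4B (−0.29, −0.39 to −0.19) of the same stage were lower there. With CBC, ATG7 stood at 26.9 and 127 CPM, so that the gap between lines was far wider than that between treatments. VGLL4 overlaps 29.9% of the ATG7 transcript on the opposite strand and had 445 to 3008 counts. Over all 40 members, 11 were past 2-fold higher in the PANC-1 control and 3 in the MIA PaCa-2 control, where 23.9% and 17.9% of all genes tested were, so that the number higher in PANC-1 is near the share over all genes. The 3 were ATG2B (−1.98), ATG14 (−1.13) and the fusion SNARE gene STX17 (−1.07).

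The ATG8 family split into 3 genes that rose and 2 that were not called. Over all genes tested across both lines, 2.26% rose and 2.45% fell by edgeR. MAP1LC3B, which encodes LC3B, was at 118 CPM (2630 counts) and 455 CPM (11249 counts) in MIA PaCa-2 and at 95.1 CPM (2162 counts) and 381 CPM (10401 counts) in PANC-1. It differed by nearly the same factor in both lines, 3.84-fold (log2 1.94, 1.88 to 2.0) and 4.0-fold (2.0, 1.93 to 2.07). Its log2 fold change across both lines was 1.98 ± 0.19 (SE), with an adjusted p of 0.00597 by edgeR. The near copy MAP1LC3B2 had 2 to 23 counts in the 4 libraries.

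GABARAPL1 was at 6.79 CPM (151 counts) and 55.8 CPM (1380 counts) in MIA PaCa-2 and at 7.83 CPM (178 counts) and 25.9 CPM (708 counts) in PANC-1. Both controls were low and close to each other, and the CBC libraries stood 8.13-fold (log2 3.02, 2.80 to 3.29) and 3.29-fold (1.72, 1.49 to 1.97) above them. The log2 fold change of GABARAPL1 across both lines was 2.39 ± 0.38 (SE), with an adjusted p of 0.0188 by edgeR. MAP1LC3A, which encodes LC3A, was at 10.5 (PBS) and 37.6 CPM (CBC) in MIA PaCa-2 and at 6.95 and 18.2 CPM in PANC-1. It was higher with CBC by 3.57-fold (log2 1.84, 1.64 to 2.06) and 2.59-fold (1.37, 1.12 to 1.65), and its adjusted p across both lines was 0.028 by edgeR with a log2 fold change of 1.62 ± 0.30 (SE). GABARAPL2 was at 34.2 (PBS) and 21.7 CPM (CBC) in MIA PaCa-2 and at 38.7 and 35.9 CPM in PANC-1, with log2 fold changes of −0.66 (−0.82 to −0.50) and −0.11 (−0.24 to 0.02). The 4 libraries of GABARAP lay between 7.42 and 18.8 CPM, with log2 fold changes of 0.09 and 0.30. Of the GABARAP transcript, 52.4% overlaps another protein-coding gene on the same strand that was at 0 counts in all libraries. Reads in the shared stretch may not have been counted for either gene, so that the level of GABARAP and its place and share in the family are uncertain.

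Per kilobase of canonical transcript, MAP1LC3B was the most abundant ATG8 gene in all 4 libraries, at 55.1 (PBS) and 212 (CBC) CPM per kilobase in MIA PaCa-2 and at 44.3 and 177 in PANC-1. GABARAPL2 was next to it in both controls, at 35.1 and 39.7 CPM per kilobase. In the MIA PaCa-2 CBC library GABARAPL2 (22.3) stood behind MAP1LC3A (39.0) and GABARAPL1 (29.6), whereas in the PANC-1 CBC library (36.9) it was still ahead of both (18.8 and 13.8). Of all counts of the family, MAP1LC3B took 66.8% (exact binomial 95% interval 65.3% to 68.2%) with PBS and 78.7% (78.0% to 79.4%) with CBC in MIA PaCa-2. In PANC-1 it took 58.0% (56.4% to 59.6%) and 79.4% (78.7% to 80.1%). The share of GABARAPL2 was 19.3% and 3.75% in MIA PaCa-2 and 23.6% and 7.49% in PANC-1, and thus lower with CBC in both.

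**Figure D3:**
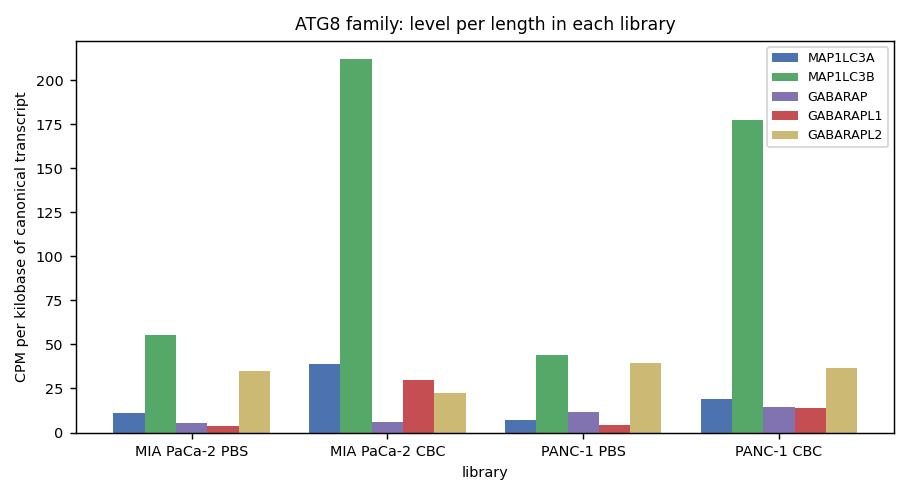
Level of each ATG8 family gene (bars, CPM per kilobase of canonical transcript, axis from 0) in each of the 4 libraries, with 1 library per bar and no error bar. MAP1LC3B stands at 212 and 177 in the CBC libraries against 55.1 and 44.3 in the controls, and GABARAPL2 is second to it in each library but the MIA PaCa-2 CBC library.

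The receptors, which link cargo to ATG8 proteins, held 2 genes of 8 that rose across both lines. By the same edgeR test, 2.26% of all genes rose and 2.45% fell. SQSTM1 encodes p62, a receptor for ubiquitinated cargo that is itself degraded by autophagy and that also regulates the NRF2 pathway. It was at 180.2 CPM (4008 counts) and 1438 CPM (35559 counts) in MIA PaCa-2 and at 491.5 CPM (11175 counts) and 1949 CPM (53273 counts) in PANC-1. Both CBC libraries stood above both controls, and the MIA PaCa-2 control was below the PANC-1 control by a log2 ratio of 1.45 (1.40 to 1.4997). The difference was 7.97-fold (log2 2.995, 2.95 to 3.04) in MIA PaCa-2 and 3.97-fold (1.99, 1.96 to 2.02) in PANC-1. Across both lines the log2 fold change of SQSTM1 was 2.50 ± 0.26 (SE), with an adjusted p of 0.00657 by edgeR. MRNIP overlaps 55.7% of the SQSTM1 transcript on the opposite strand and had 538 to 768 counts, fewer than SQSTM1 in each library.

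The 40 members together held 0.240% of the counts of the MIA PaCa-2 control and 0.529% of those of its CBC library, and in PANC-1 0.290% and 0.538%. SQSTM1 alone made up 7.69% (7.47% to 7.93%) of the members' counts in the MIA PaCa-2 control and 29.1% (28.8% to 29.3%) with CBC. In PANC-1 its share was 15.8% (15.6% to 16.1%) and 35.5% (35.2% to 35.7%). Per kilobase, SQSTM1 exceeded MAP1LC3B in each of the 4 libraries, at 63.5, 506, 173 and 686 CPM per kilobase in the order MIA PaCa-2 PBS and CBC and PANC-1 PBS and CBC.

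OPTN, a receptor for damaged mitochondria and bacteria, was at 23.5 (PBS) and 64.8 CPM (CBC) in MIA PaCa-2 and at 47.8 and 127 CPM in PANC-1. It differed by about the same factor in both lines, 2.76-fold (log2 1.46, 1.32 to 1.61) and 2.66-fold (1.41, 1.31 to 1.51), although the level in PANC-1 was higher with either treatment. Its log2 fold change across both lines was 1.44 ± 0.22 (SE), with an adjusted p of 0.0171 by edgeR. TAX1BP1, another ubiquitin-binding receptor, was at 129 (PBS) and 285 CPM (CBC) in MIA PaCa-2 and at 237 and 327 CPM in PANC-1. It was past 2-fold in MIA PaCa-2 (1.14, 1.08 to 1.21) but not in PANC-1 (0.46, 0.41 to 0.51), and its adjusted p across both lines was 0.0935 by edgeR. CALCOCO2 (0.78 and 0.55), NBR1 (0.44 and 0.41) and the mitophagy receptor BNIP3L (0.21 and 0.57) were above 0 in both lines. The fusion gene STX17 was at 20.6 (PBS) and 20.2 CPM (CBC) in MIA PaCa-2 and at 9.81 and 15.6 CPM in PANC-1, with log2 fold changes of −0.03 (−0.21 to 0.16, and above 0 when scaled by library totals) and 0.66 (0.43 to 0.91).

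**Figure D4:**
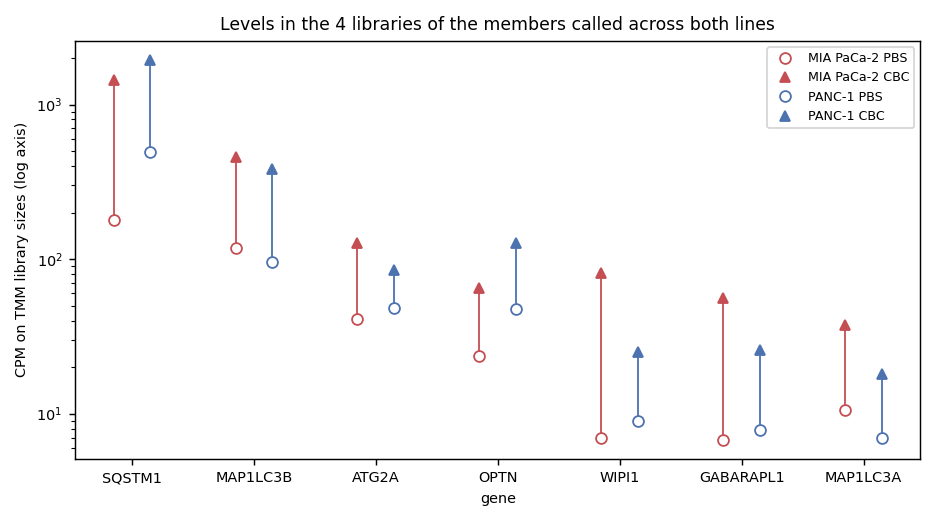
Level (CPM on TMM-scaled library sizes, log axis) of the 7 members that rose across both lines, with PBS as open circles and CBC as triangles, joined by a line for MIA PaCa-2 (red) and for PANC-1 (blue). Each CBC point lies above its own control, from 1.75-fold for ATG2A in PANC-1 to 11.6-fold for WIPI1 in MIA PaCa-2.

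The mitophagy receptor genes BNIP3 and FUNDC1 were at 0 counts in both MIA PaCa-2 libraries. There, 3 counts correspond to 0.138 CPM (PBS) and 0.130 CPM (CBC) by library totals, without the TMM scaling of the other levels. In PANC-1, BNIP3 was at 95.4 CPM (2169 counts) and 133 CPM (3645 counts), with a log2 fold change of 0.48 (0.41 to 0.56). FUNDC1 was at 27.2 CPM (619 counts) and 24.7 CPM (675 counts) there, with a log2 fold change of −0.14 (−0.30 to 0.02). Their values across both lines therefore rest on PANC-1 alone. The genes beside them were looked at after these values were seen. FUNDC1 (GRCh38, chrX:44523639-44542859) lies in a row of 7 protein-coding genes from MAOB to DIPK2B (chrX:43766610-45200901) that had 0 counts in MIA PaCa-2 except for 1 count of DIPK2B in the CBC library. The row includes KDM6A, a histone demethylase gene, which had 954 and 1384 counts in PANC-1. On either side of it, MAOA had 161 and 85 counts and KRBOX4 had 643 and 1162 counts in MIA PaCa-2. BNIP3 (chr10:131967684-131981967) did not lie in such a row, and its neighbors PPP2R2D (869 and 1034) and JAKMIP3 (103 and 114) had counts in MIA PaCa-2. The 44 annotated pseudogene rows of BNIP3 together held 1 to 8 counts in each library. The cause of these counts of 0 was not tested.

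**Figure D5:**
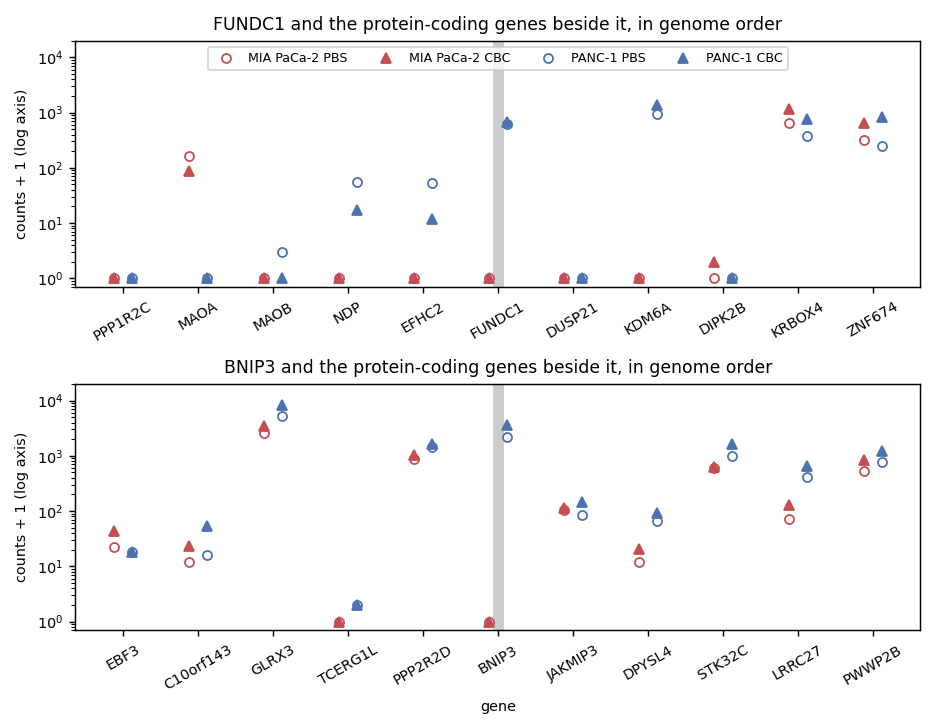
Counts plus 1 (log axis) of FUNDC1 (upper) and BNIP3 (lower), shaded in gray, and of the 5 protein-coding genes on each side, in genome order, in the 4 libraries. In MIA PaCa-2 (red) the genes from MAOB to DIPK2B lie at 0 or 1 count around FUNDC1, whereas the genes next to BNIP3 do not.

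Beyond the 40 members, 52 further genes of the pathway were read: paralogs and partners of the core, fusion genes, other receptors and adaptors, and transcription factors known to act on autophagy genes. In MIA PaCa-2, 13 of 47 tested were called higher and 0 lower, beside 11.5% and 8.97% of all genes, with a median log2 fold change of 0.39. In PANC-1, 7 of 48 were called higher and 0 lower, beside 7.71% and 7.03% of all genes, with a median of 0.52. Across both lines, 7 of 49 rose and 0 fell by edgeR, beside 2.26% and 2.45% of all genes. At an unadjusted p under 0.05, 20 were higher and 0 lower (10.6% and 10.4% of all genes), and by DESeq2 12 were higher and 0 lower (4.38% and 5.43%). The 5 genes past 2-fold in both lines were ATG9B, WDR45, PLEKHM1, CCPG1 and DDIT3. WDR45, a WIPI family member, was at 71.3 (PBS) and 182 CPM (CBC) in MIA PaCa-2 and at 35.7 and 90.9 CPM in PANC-1, a log2 fold change of 1.35 in both. PLEKHM1, an adaptor for fusion with lysosomes, was at 24.4 (PBS) and 66.9 CPM (CBC) in MIA PaCa-2 and at 29.6 and 113 CPM in PANC-1 (1.45 and 1.93). CCPG1, a receptor for the endoplasmic reticulum, was at 7.15 (PBS) and 22.5 CPM (CBC) in MIA PaCa-2 and at 16.4 and 45.1 CPM in PANC-1 (1.64 and 1.45). DDIT3, which encodes the stress factor CHOP, showed the widest difference of the 5, at 8.63 and 187 CPM in MIA PaCa-2 and at 23.4 and 196 CPM in PANC-1 (4.42 and 3.06). ATG9B, a paralog of ATG9A, had only 3 and 63 counts in MIA PaCa-2 and 14 and 51 counts in PANC-1, and its adjusted p was 0.0988 by edgeR. TMEM41B, CALCOCO1 and ATF4, named after their values were seen, also rose across both lines, at log2 fold changes of 0.97, 1.18 and 1.27. Of the 9 listed transcription factors, DDIT3 and ATF4 rose by edgeR and 0 fell, beside 2.26% and 2.45% of all genes. TFE3 was above 0 in both lines (0.94 in MIA PaCa-2 and 0.70 in PANC-1). So were FOXO3 (1.42 and 0.66) and NFE2L2 (0.55 and 0.37). TFEB (0.39 and −0.32) and MITF (1.42 and −0.66) differed in sign, and HIF1A (−0.35 and −0.04) was below 0 in both. FOXO1 reached 1 CPM in MIA PaCa-2 only (1.16).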

How the data were processed

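Directional mRNA libraries of the 4 cultures were sequenced by the authors, trimmed with cutadapt 2.7, aligned to GRCh38 with STAR and counted per Ensembl gene (release 89) with HTSeq, whose strand setting and mode are not given in the sources used here. If strand was ignored, reads in a stretch that a member shares with a gene on the opposite strand may have been counted for neither. The values used are the raw counts in the deposited table. A deposited normalized signal of each library matched CPM on TMM library sizes computed from the counts (largest relative difference 6.84e-09). All values were computed from the counts in R 4.3.3 by edgeR 4.0.16, with TMM factors from all 4 libraries and a prior count of 2. Symbols and positions came from GENCODE release 44 on GRCh38, and 57392 of 58233 identifiers matched a symbol.

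Exact Clopper-Pearson 95% intervals of the count ratio came from scipy 1.17.1, and these and the floor of 3 counts cover counting error only. CBC was tested against PBS in edgeR's quasi-likelihood model with the line as a block, after filterByExpr, with Benjamini-Hochberg adjustment over 16381 genes. The 2 libraries of a line belong to the same cell line, and their deviations correlated at 0.923 over genes. Only the log2 fold changes within a line and the blocked test were tried on simulated data, in separate code.

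All 40 members are accounted for. Their 4 library values are given where they were past 2-fold in a line, rose across both lines, or had the highest or lowest mean log2 fold change of a stage with a mean of at least 10 CPM. Other pathway genes are named where past 2-fold in both lines, apart from those named after their values were seen and the remaining transcription factors. The numbers of genes past 2-fold between the control libraries used CPM plus 0.1, and the printed log2 ratios used CPM alone. The members and lists were chosen with earlier results of these data known. Alternatives were DESeq2 1.42.0, other scalings, other filters on low counts and no block.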

Additional observations from a re-analysis of the deposited data

Results flagged for a closer look

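Of the 40 members, 4 had log2 fold changes of CBC over PBS with counting intervals on opposite sides of 0 in the 2 lines. ULK2 was lower with CBC in MIA PaCa-2 and higher in PANC-1, a difference (MIA PaCa-2 minus PANC-1) of −1.25 on the log2 scale. For ATG2B the difference was −0.94 in the same direction. VMP1 was higher with CBC in MIA PaCa-2 and lower in PANC-1, by 1.01, and ATG4A likewise, by 0.99. With 1 library per condition, the difference between the lines was not tested.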

How the results depend on the processing

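The numbers of members called within a line and the medians moved little: under other scalings, filters and prior counts, the members past 2-fold stayed at 9 in MIA PaCa-2, at 6 or 7 in PANC-1 and at 6 in both, and the medians at 0.41 to 0.49 and 0.35 to 0.45. Among the members chosen by the naming rule, the log2 fold change of STX17 in MIA PaCa-2 turned its direction with library totals, from −0.03 to 0.04, and no other did. The test across both lines depended on its settings. It called 7 members with the line as a block and 0 without this replicate block, where the adjusted p by edgeR was 1 for each of the 7. It called 11 by DESeq2's Wald test, with 1296 genes called in all against 771 by edgeR, and 12 with all genes of at least 1 count tested by edgeR, with 2063 of 28834 genes called. With DESeq2 size factors 6 were called, without ATG2A, and 633 of 16381 genes were called in all. With a filter at 5 CPM in 2 libraries 5 were called, without ATG2A and WIPI1, and 447 of 11574 genes in all. TAX1BP1 passed by DESeq2 (adjusted p 0.0491) and without the filter (0.00409 by edgeR), where ATG101 also passed (0.0271). The cause was not tested. No library could be left out, since each condition has 1. Depth limits statements on BNIP3 and FUNDC1 in MIA PaCa-2, where 0 counts allow up to 0.138 CPM by library totals.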
